A study of Mus musculus with 6 samples.

Results

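The 5 transcripts described here, ENSMUST00000130201, ENSMUST00000156816, ENSMUST00000045689, ENSMUST00000192286 and ENSMUST00000146665, are listed as transcripts of the mouse gene Mrpl15, and they are 5 of the 65535 rows of a transcript table. They were chosen because, against control, ENSMUST00000045689 had a larger share of their summed level after both triptolide and triptonide. The FPKM values (fragments scaled by transcript length and by the number of fragments mapped in a library) that show this shift are therefore given as a description, without a test. The comparison of triptonide with triptolide was not named in that choice and was tested. RNA was sequenced from GC2 (GC-2spd) cells, a mouse spermatocyte line, in 2 libraries after triptonide, 2 after triptolide (the agent label reads "Tiptolide") and 2 control libraries. Per the labels' protocols, the wells of a 6-well plate held 100000 cells each in 2 mL of medium, and 12 h of culture came before 24 h with 0.1 µM triptolide. No dose or time is stated for triptonide, so the doses of both compounds cannot be said to match, and no vehicle is named for the control. All 3 groups come from 1 immortalised line, no genotype or allele is labelled, and the labels do not tell whether replicate libraries are separate cultures, so a p-value reflects the spread among these libraries alone, which may be technical.

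Mrpl15 is a nuclear gene for a protein of the large subunit of the mitochondrial ribosome. That ribosome translates the few messages encoded by mitochondrial DNA, all of which specify subunits of the respiratory chain and ATP synthase, so its proteins are made in the cytosol, imported, and assembled with mitochondrial ribosomal RNA. A gene of this kind can give several transcripts through other start sites, splice sites or ends, and only some of them need encode the full protein. Triptolide, a diterpenoid of Tripterygium wilfordii, binds the XPB subunit of the transcription factor TFIIH and inhibits transcription by RNA polymerase II. Triptonide is its analog in which a ketone replaces a hydroxyl group.

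The deposited table gives transcript IDs without gene names, and 0 of the 5 IDs occur in the gene tables used here, so the assignment to Mrpl15 (gene ID ENSMUSG00000033845) was taken as given with the selection. The RefSeq gene table of assembly GRCm38.p6 lists Mrpl15 as protein coding, with 4 transcripts, of which 2 are curated as coding, 1 is curated as non-coding and 1 is a predicted coding transcript. That table does not pair these with the 5 IDs, so which of the 5 encode the protein is not stated here, nor where in the gene they differ. The genome build named for the data is a human one, so no coordinates are given. Transcripts of one gene overlap, and the fragments they share have to be divided among them by the quantification, so the split between the 5 is less certain than their sum.

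Between 40956 and 41680 transcripts were listed above 0 FPKM in the treated libraries, against 36592 and 37997 in the control libraries. Across transcripts that passed the filter described next, replicate libraries had a Pearson r of 0.923 to 0.932, and libraries of different groups 0.820 to 0.900. The table holds no counts and absolute depth is unknown. Steps in the low values gave estimated relative depths of 0.768 and 0.737 for triptonide, 0.603 and 0.674 for triptolide, and 0.824 and 1.0 for control. These estimates span a 1.66-fold range and are lower in the treated libraries, but no uncertainty was computed for them. Of the 65535 transcripts listed, 23407 passed a filter of at least 0.5 FPKM in at least 2 libraries and were tested. All 5 Mrpl15 transcripts are among them. A count of 65535 is also the most rows that an older spreadsheet format holds below a header line, so the list may be cut off. Shares, ranks and adjusted p-values over all transcripts refer to the listed rows alone. ENSMUST00000045689 had just 1 control library above 0.5 FPKM and passed through its treated libraries.

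ENSMUST00000045689 had 4.52 and 2.94 FPKM after triptonide, 4.75 and 3.61 FPKM after triptolide, and 0.599 and 0.304 FPKM in control. Every treated library lay above both control libraries, and the triptonide and triptolide libraries overlapped. The transcript averaged 3.73 ± 1.12 FPKM after triptonide and 4.18 ± 0.81 FPKM after triptolide, against 0.451 ± 0.208 FPKM in control (SD, n = 2 each). These means were 8.27 times the control mean after triptonide and 9.27 times after triptolide. Pairing any triptonide library with any control library gave ratios of 4.92 to 14.9, and any triptolide library 6.04 to 15.6. The control libraries differed from each other by 1.97 times, the triptonide libraries by 1.54 times and the triptolide libraries by 1.32 times. On the scale of log2(FPKM + 0.5), which understates changes of low transcripts, the differences from control were 2.15 ± 0.29 after triptonide and 2.31 ± 0.29 after triptolide (SE of the fit). Values per mapped fragment are relative to the other RNA of a library, so a higher value need not mean more of a transcript per cell. They also do not tell fewer cells apart from less RNA per cell. Both limits hold here and in all levels that follow.

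The place of ENSMUST00000045689 among the listed transcripts of a library moved with these levels, and such a rank does not depend on how a library is scaled. Of the transcripts listed above 0, 16.3% and 20.9% had the same or a higher FPKM after triptonide and 13.3% and 15.9% after triptolide, against 49.5% and 62.2% in control. Within the 5, it ranked first in each of the 4 treated libraries and last in both control libraries.

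**Figure D1:**
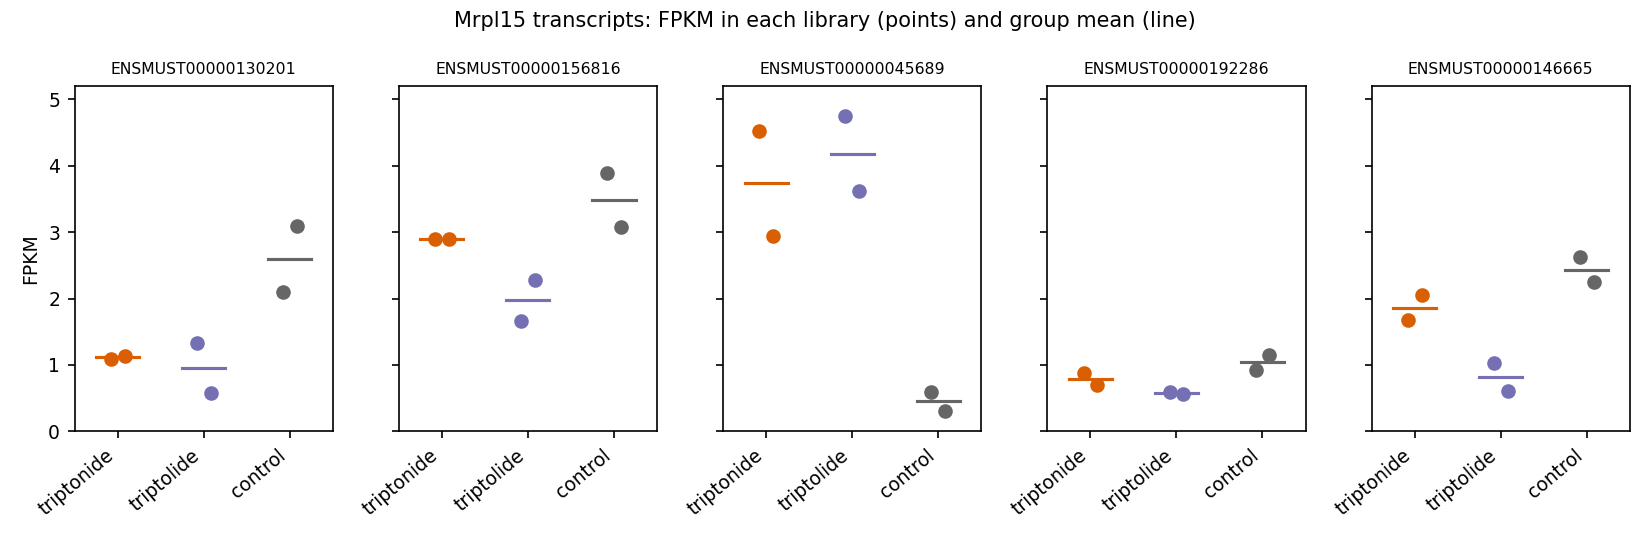
FPKM of each of the 5 Mrpl15 transcripts (vertical axis) in the triptonide, triptolide and control groups (horizontal axis), with 1 point per library and a line at the mean of 2 libraries. ENSMUST00000045689 is above 2.9 FPKM in every treated library and below 0.6 FPKM in control, while the other 4 transcripts are highest in control.

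The other 4 transcripts had treated levels below control. ENSMUST00000156816, the most abundant of them on average, had 2.90 and 2.89 FPKM after triptonide, 1.67 and 2.28 FPKM after triptolide, and 3.88 and 3.08 FPKM in control. Its means were 0.832 times control after triptonide and 0.566 times control after triptolide. The triptonide libraries lay close together and just below the lower control library.

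ENSMUST00000130201 had 1.09 and 1.14 FPKM after triptonide, 1.32 and 0.582 FPKM after triptolide, and 2.11 and 3.10 FPKM in control. Both treated groups averaged less than the lower control library, at 1.12 ± 0.036 FPKM and 0.953 ± 0.525 FPKM, against 2.60 ± 0.70 FPKM in control (SD, n = 2 each). The triptolide libraries differed by 2.28 times and enclosed both triptonide values, so the compounds cannot be put in order for this transcript.

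ENSMUST00000146665 had 1.67 and 2.06 FPKM after triptonide, 1.03 and 0.610 FPKM after triptolide, and 2.62 and 2.24 FPKM in control. The 3 groups did not overlap, with triptonide between triptolide and control. Its mean was 0.766 times control after triptonide and 0.337 times control after triptolide.

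ENSMUST00000192286, the least abundant of the 5 by the mean over all libraries, had 0.885 and 0.697 FPKM after triptonide, 0.595 and 0.571 FPKM after triptolide, and 0.927 and 1.16 FPKM in control. The groups stood in the same order, and the higher triptonide library was 0.955 times the lower control library. These values lie close to the filter of 0.5 FPKM and to the added 0.5 FPKM of the log2 scale.

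On that scale the differences from control for these 4 transcripts ran from -0.92 to -0.22 after triptonide and from -1.17 to -0.51 after triptolide. The median over all tested transcripts was -0.010 after triptonide and -0.26 after triptolide. With median-of-ratios scaling, where the triptolide median was -0.029, the triptolide difference was -0.43 for ENSMUST00000156816, against -0.69 as deposited, and -0.31 for ENSMUST00000192286, against -0.51 as deposited. Leaving out single control libraries moved the triptonide difference of ENSMUST00000156816 to -0.075 without replicate 1 and to -0.37 without replicate 2, and that of ENSMUST00000192286 to -0.36 without replicate 1 and to -0.15 without replicate 2. For each of the 4, both triptolide libraries lay below both control libraries, as did 46.1% of all tested transcripts. The same held for all 4 after triptonide, where the share over all tested transcripts was 29.7%. ENSMUST00000045689 lay above both control libraries in each comparison, as did 24.1% of tested transcripts after triptolide and 28.4% after triptonide. The limma test called 35.4% of all tested transcripts between triptolide and control and 10.6% between triptonide and control (adjusted p under 0.05). No calls are given for the 5, which were chosen on these contrasts.

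The share of each transcript in the 5-transcript sum of a library is unaffected by any factor common to that library. ENSMUST00000045689 made up 40.8% and 30.2% of the sum after triptonide, 50.7% and 47.2% after triptolide, and 5.90% and 3.08% in control. Its mean share was 35.5% ± 7.5 after triptonide and 49.0% ± 2.5 after triptolide, against 4.49% ± 2.00 in control (SD, n = 2 each). The gain over control was 31.05 percentage points after triptonide and 44.5 points after triptolide. With the depth of these libraries unknown, no interval can be given for the share of a single library.

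In control 3 transcripts held most of the sum. ENSMUST00000156816 held 38.3% and 31.2%, ENSMUST00000130201 20.8% and 31.3%, and ENSMUST00000146665 25.9% and 22.7%. The first place went to ENSMUST00000156816 in control replicate 1 and, by 3.10 against 3.08 FPKM, to ENSMUST00000130201 in control replicate 2, so these cannot be ranked in control cells.

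The shares given up were uneven. After triptonide, the mean share minus that in control was -15.3 points for ENSMUST00000130201, -6.78 points for ENSMUST00000156816, -6.17 points for ENSMUST00000146665 and -2.85 points for ENSMUST00000192286. After triptolide these differences were -15.2, -10.97, -14.8 and -3.53 points in the same order of transcripts. ENSMUST00000156816 was second in all 4 treated libraries, with 26.2% and 29.7% after triptonide and 17.8% and 29.8% after triptolide. The triptolide libraries enclosed both triptonide libraries for this share, at 17.79% and 29.76% against 26.22% and 29.73%.

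**Figure D2:**
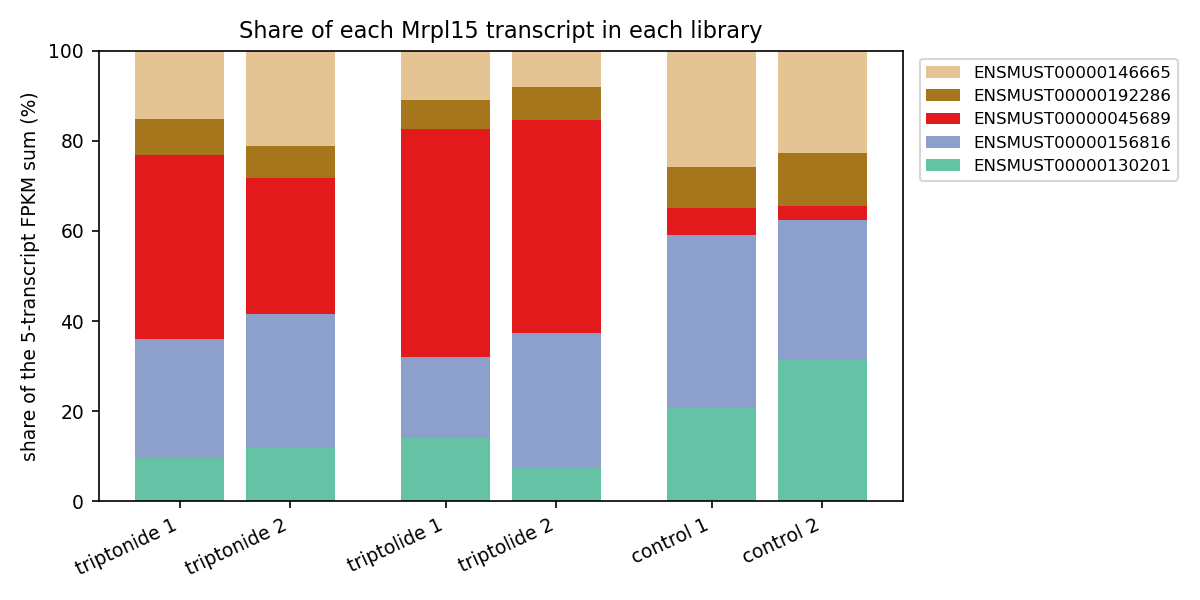
Share of each Mrpl15 transcript in the 5-transcript FPKM sum (vertical axis, percent) in each of the 6 libraries (horizontal axis), as stacked bars. The band of ENSMUST00000045689 takes 30.2% to 50.7% in the treated libraries and 3.08% to 5.90% in control.

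Among the other 4 transcripts alone, with ENSMUST00000045689 left out of the sum, the composition differed less between groups on average. ENSMUST00000156816 made up 44.3% and 42.6% of the 4 after triptonide, 36.1% and 56.4% after triptolide, and 40.7% and 32.2% in control. ENSMUST00000130201 made up 16.7% and 16.8% after triptonide, which lay below the 22.1% and 32.3% in control, and 28.7% and 14.4% after triptolide, which enclosed the lower control library. ENSMUST00000146665 made up 25.5% and 30.3% after triptonide and 22.3% and 15.1% after triptolide, against 27.5% and 23.4% in control, so that the triptolide libraries were the lowest. ENSMUST00000192286 made up 13.5% and 10.3% after triptonide and 12.9% and 14.1% after triptolide, against 9.72% and 12.1% in control. Both of its triptolide libraries lay above both control libraries.

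The sum of the 5 transcripts moved much less than its parts. This sum need not be the total of Mrpl15, since no table used here shows that the 5 are all transcripts of the gene. It was 11.1 and 9.73 FPKM after triptonide, 9.37 and 7.65 FPKM after triptolide, and 10.1 and 9.88 FPKM in control. The triptonide libraries enclosed the control libraries, and the triptolide libraries lay below them. The mean sum was 1.04 times control after triptonide and 0.851 times control after triptolide. The order of triptolide and control in this sum depended on the scaling: the log2 ratio was -0.24 with FPKM as deposited, 0.079 with median-of-ratios scaling and 0.084 with quantile normalization.

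Set against each other, ENSMUST00000045689 was 3.28 FPKM higher after triptonide than in control while the other 4 together were lower by a change of -2.89 FPKM. After triptolide the changes were 3.73 and -5.23 FPKM. The 4 together had 6.55 and 6.79 FPKM after triptonide, 4.62 and 4.04 FPKM after triptolide, and 9.54 and 9.57 FPKM in control, so that all 3 groups were separated. The log2 ratio of this sum to control was -0.52 after triptonide and -1.15 after triptolide, and with median-of-ratios scaling -0.52 and -0.83. In triptolide replicate 1 the single transcript exceeded the 4 together, at 1.03 times their sum. That ratio was 0.895 in triptolide replicate 2, 0.690 and 0.434 after triptonide, and 0.0627 and 0.0318 in control.

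**Figure D3:**
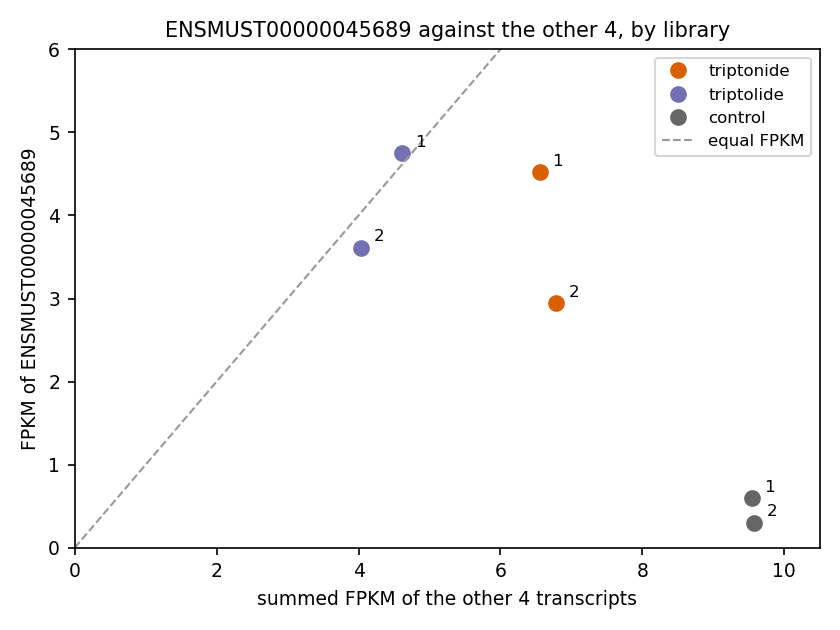
FPKM of ENSMUST00000045689 (vertical axis) against the summed FPKM of the other 4 Mrpl15 transcripts (horizontal axis), 1 point per library with its replicate number, and a dashed line where both are equal. Triptolide libraries lie at the line, triptonide libraries to the right of it, and control libraries at 9.54 and 9.57 FPKM for the 4 and under 0.6 FPKM for ENSMUST00000045689.

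The comparison of triptonide with triptolide asked whether the ketone analog left the 5 transcripts at other levels, at a triptonide dose that is not stated. By limma with Benjamini-Hochberg adjustment over all 23407 transcripts, 0 of the 5 passed an adjusted p of 0.05, against 15.7% of all tested transcripts. At an unadjusted p under 0.05 there was 1 of the 5, ENSMUST00000146665, a share no larger than the 32.4% of all tested transcripts below that p. Its log2 fold change was 0.85, with 95% confidence bounds of 0.26 and 1.45 (limma adjusted p = 0.0729), and 2 of 2 triptonide libraries were above both triptolide libraries. The median of all tested transcripts in this comparison was 0.24. The adjusted p of ENSMUST00000146665 ran from 0.0628 to 0.221 over the 16 other settings, so none of them brought it past the threshold. The interval itself reached below 0 with median-of-ratios scaling (-0.0039 to 1.26), without triptonide replicate 2 (-0.12 to 1.59) and without triptolide replicate 2 (-0.0099 to 1.25).

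The remaining 4 transcripts had wide intervals. ENSMUST00000045689 differed by -0.16 (95% confidence interval -0.91 to 0.59; limma adjusted p = 0.740), an interval that holds a difference of almost 2-fold downward. ENSMUST00000156816 differed by 0.47 (-0.025 to 0.96; limma adjusted p = 0.170), ENSMUST00000192286 by 0.25 (-0.21 to 0.71; limma adjusted p = 0.395) and ENSMUST00000130201 by 0.20 (-0.64 to 1.05; limma adjusted p = 0.708). A p above the threshold does not show that the compounds left these transcripts at equal levels. In FPKM as deposited, 3 of the 5 had both triptonide libraries above both triptolide libraries, as did 44.9% of all tested transcripts. With median-of-ratios scaling ENSMUST00000146665 and ENSMUST00000156816 still lay above, ENSMUST00000192286 overlapped, and ENSMUST00000045689 lay below in both triptonide libraries, against 28.4% of tested transcripts above and 28.8% below.

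**Figure D4:**
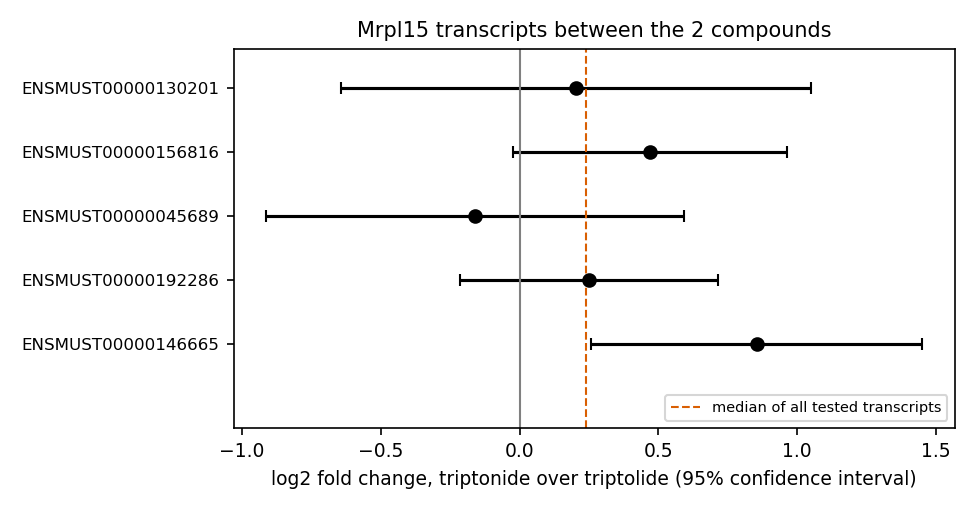
Log2 fold change of triptonide over triptolide on the log2(FPKM + 0.5) scale (horizontal axis) for each Mrpl15 transcript, with 95% confidence intervals from limma and a dashed line at the median of all tested transcripts, 0.24. With FPKM as deposited and all 6 libraries, the interval of ENSMUST00000146665 lies above 0, though not with median-of-ratios scaling (-0.0039 to 1.26) or without replicate 2 of either compound, those of the other 4 include 0, and 0 of the 5 passed after adjustment.

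The mean share of ENSMUST00000045689 was 35.5% after triptonide and 49.0% after triptolide, a difference of -13.4 percentage points, and the libraries did not overlap. With 2 libraries against 2, the exact permutation test cannot give a two-sided p below 0.333, and it gave 0.333. The same p was found for the log2 sum of the 5 (3.38 after triptonide and 3.08 after triptolide) and for the log2 ratio of ENSMUST00000045689 to the other 4 (-0.87 after triptonide and -0.060 after triptolide), and adjusted over these 3 quantities it remained 0.333. The sum was higher after triptonide by a log2 ratio of 0.29 with FPKM as deposited, and this turned to -0.030 with median-of-ratios scaling and -0.032 with quantile normalization.

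The 5 transcripts spread between libraries of a group by less than the most variable 10% of transcripts of this level did. Among the 7881 tested transcripts with a mean between 0.805 and 2.79 FPKM, the range of the 5, the median absolute difference between replicates on the log2(FPKM + 0.5) scale was 0.26 for triptonide, 0.27 for triptolide and 0.25 for control, with 90th percentiles of 1.04, 1.10 and 1.06. ENSMUST00000045689 differed between replicates by 0.54, 0.35 and 0.45 in these groups, which is more than the median in each. The largest replicate difference among the 5 was 0.75, for ENSMUST00000130201 in triptolide, and the smallest was 0.0048, for ENSMUST00000156816 in triptonide.

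The other transcripts most like ENSMUST00000045689 were taken by the Pearson correlation of log2(FPKM + 0.5) over the 6 libraries, among 7000 tested transcripts with a mean within 2-fold of its own. ENSMUST00000129993 came first with an r of 0.998, at 3.89 and 3.16 FPKM after triptonide, 3.96 and 3.19 FPKM after triptolide, and 1.28 and 0.957 FPKM in control. ENSMUST00000109149 followed with an r of 0.993, at 6.79 and 6.24 FPKM after triptonide, 8.23 and 6.24 FPKM after triptolide, and 2.11 and 1.72 FPKM in control. Both share the step between control and treated libraries and the higher first replicate in each group, at a smaller fold over control. With 6 libraries in 3 groups and so many candidates, high values of r are easily reached. The other 4 Mrpl15 transcripts had r of -0.86 for ENSMUST00000130201, -0.80 for ENSMUST00000192286, -0.70 for ENSMUST00000156816 and -0.68 for ENSMUST00000146665. Fragments shared by the Mrpl15 transcripts were divided among them by the quantification. All were chosen for the share shift between control and treated libraries, which favours negative signs, so these r add no separate finding.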

How the data were processed

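The authors deposited 1 table with an FPKM value per transcript and library. STAR and StringTie are named, without versions, in the submitters' processing notes, which also name hg19, a human build, although the IDs are mouse Ensembl IDs. Values were compared as log2(FPKM + 0.5) in limma 3.58.1 (R 4.3.3). A single model of the 6 libraries, with an intensity trend and 3 residual degrees of freedom, gave p-values that were adjusted by the Benjamini-Hochberg method over all tested transcripts. The fit was also run on simulated libraries with independent noise and with the spreads shuffled among transcripts. That run checked the code and does not show how often calls in these data are false. Shares and sums were computed from FPKM as deposited, in Python 3.11.15, with exact permutation tests from scipy 1.17.1. Relative depth was taken from ratios of values between 0.01 and 0.2 FPKM. The members and lists were chosen with earlier results of these data known. Named transcripts were the 5 members and the 2 most like ENSMUST00000045689. Lists of mitochondrial ribosomal genes and cell type markers were not run, since no table used here pairs these IDs with genes, so the spermatocyte label was not checked. Alternatives were other pseudocounts, filters, scalings and fits, a replicate block, and each library left out.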

Additional observations from a re-analysis of the deposited data

How the results depend on the processing

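The share of ENSMUST00000045689 kept its direction in the 6 other settings of each comparison that could move it. The replicate block and the filter on the denominator, which all 5 pass, leave it as it is by construction. The gain over control was 25.7 to 36.3 points after triptonide and 42.7 to 46.2 points after triptolide with a library left out. With 0.5 FPKM added to each transcript it was 24.98 points after triptonide and 34.8 points after triptolide. The share after triptonide minus that after triptolide was -18.7 to -8.13 points with a library left out. Against control, the sign of each of the 5 log2 fold changes held in every setting that gave a value. ENSMUST00000192286 had none with the filter of 1 FPKM. Between triptonide and triptolide, ENSMUST00000130201 turned to -0.012 with median-of-ratios scaling and ran from -0.17 (without triptolide replicate 2) to 0.58 with a library left out, and ENSMUST00000045689 ran from -0.43 to 0.11 (without triptonide replicate 2), with 0.015 without triptolide replicate 1. The log2 ratio of the 5-transcript sum reversed to -0.030 (median-of-ratios) and -0.032 (quantile) for triptonide against triptolide, and to 0.079 and 0.084 for triptolide against control. With a library left out it was 0.15 to 0.44, -0.39 to -0.095 and, for triptonide against control, -0.040 (without triptonide replicate 1) to 0.15. Scalings of the sum of the other 4 were chosen after seeing the data. The cause of these shifts was not tested.

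Over the whole table, 3669 transcripts were called between triptonide and triptolide, 1820 in a fit of only these groups, and 91, 1261, 1155, 1646, 1937 and 1940 without triptonide 1, triptonide 2, triptolide 1, triptolide 2, control 1 and control 2. Between triptonide and control 2488 were called, 1273 without the filter, 1552 in a fit of only these groups, and 546, 322, 1453, 1466, 242 and 291 without the same libraries. Between triptolide and control 8294 were called, and 4787 to 7412 with a library left out, the fewest without control 1 (4787) or control 2 (4824). Calls that were lower made up 23.1% between triptonide and triptolide, 58.3% with median-of-ratios scaling, 49.0% with quantile normalization and 35.3% when libraries were scaled by their sum without the top 100 transcripts. Between triptolide and control they made up 65.1%, then 46.9%, 49.1% and 54.2%. With the replicate number as a block, calls numbered 1639, 598 and 6765 in these comparisons, and 0 of the 5 transcripts passed between the compounds. Differences between replicates 1 and 2 correlated between groups with an r of 0.014, 0.0096 and -0.037. A shared plate or day was not tested.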
